A study of Mus musculus with 21 samples.

Results

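The imprinted genes of the mouse were followed in AGRP and POMC neurons, the hunger-promoting and hunger-suppressing neurons of the hypothalamic arcuate nucleus, with and without food deprivation. The set was a list of 40 gene symbols, led by Asb4 and Gnas, and its members were the rows of the count and TPM tables that carried those symbols. The tables held 39 of the 40 among 35266 genes. The symbol Peg13 had no row, and 34 members passed the filter on low counts, which asked for more than 1 CPM (a count scaled to a common library size) in at least 3 libraries. The 5 members that did not pass were Dio3, Mkrn3, Phlda2, Igf2 and H19.

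Genomic imprinting silences a gene on the copy inherited from one parent, so that only the maternal or only the paternal copy is transcribed. Imprinted genes lie in clusters that share a control region methylated in one germ line, and a cluster often joins protein-coding genes read from one parental copy with noncoding RNAs read from the other. Many act in fetal growth, in metabolism and in the hypothalamus, where loss of paternal genes of the Snrpn region accompanies the overeating of Prader-Willi syndrome and where Gnas couples hormone receptors to cyclic AMP. The allele of origin was not measured here, since all values are the sum of both copies.

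The 21 libraries came from 4 groups of male mice on a C57BL/6J background, aged postnatal day 46 to 56. AGRP neurons were taken from the NPY-hrGFP reporter line, of which 5 mice were fed and 6 were food deprived (FD) for 24 h with water only, and POMC neurons from the Pomc-GFP line, of which 5 were fed and 5 were FD. Each library was made from 44 to 214 fluorescent neurons, sorted by hand from 1 mouse, so replicates were separate animals. Every comparison of AGRP with POMC neurons is also a comparison of the reporter lines, and these cannot be told apart.

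The libraries held 9822298 to 37663979 counts on genes, with a median of 19189780, so that 3 counts, the smallest number set apart from 0, stood for 0.0797 to 0.305 CPM. Agrp and Npy were at 469.8 CPM or above in every AGRP library and at 26.2 CPM or below in every POMC library, and Pomc was at 2182 CPM or above in every POMC library and at 24.0 CPM or below in every AGRP library. In every library the summed level of 4 markers stayed at or below 14.1 TPM for astrocytes, for microglia and for endothelium, while it ran from 16.0 to 47.8 TPM for oligodendrocytes and from 10.9 to 104 TPM for tanycytes and ependyma, where Vim made up most of it. Those that moved with the groups are given beside Asb4 and in the last paragraph. POMC fed replicates 1 and 2 stood apart from the other POMC fed libraries, with Cartpt at 4457 and 4344 CPM against 778 to 1139 CPM, and results that include the POMC fed group were therefore also computed without them. The volume of spike-in RNA also differed between libraries and was grouped here into 3 sets (1 µl, 10 µl and by cell number). The labels give this volume, not a batch. AGRP FD replicate 2 (1 µl, 50 cells) was placed in the set by cell number. The spike-in mix also differed (mix 2 in AGRP fed replicate 5 and AGRP FD replicate 3). Among AGRP libraries age went with the set, at postnatal day 46 to 47 by cell number and 51 to 55 otherwise. Among POMC libraries, POMC fed replicates 1 and 2 alone were in the set by cell number. They were aged day 51, beside 54 to 56 in the others, so leaving them out also removes that set and age. POMC fed held no 10 µl library and POMC FD none by cell number.

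The members were abundant in these neurons. They took 2.22 ± 0.119% (SD, n = 5) of gene counts in AGRP fed, 2.54 ± 0.243% (SD, n = 6) in AGRP FD, 2.69 ± 0.213% (SD, n = 5) in POMC fed and 2.61 ± 0.191% (SD, n = 5) in POMC FD libraries. On the TPM scale, which corrects for gene length, 6 members had a mean of the 4 groups over 1000 TPM, namely Peg3, a zinc finger protein, Nap1l5, a nucleosome assembly protein-like gene, Ndn, which encodes necdin, Peg10, a gene derived from a retrotransposon, Impact, an inhibitor of the kinase GCN2, and Dlk1, a transmembrane relative of Notch ligands. Of these, Peg3, Nap1l5 and Ndn were over 1000 TPM in all 4 groups, while Peg10 (840.1 TPM in POMC FD), Impact (968.6 TPM in AGRP FD) and Dlk1 (626 TPM in POMC FD and 599 TPM in POMC fed) were not. Another 18 members lay between 100 and 1000 TPM, 7 between 10 and 100 TPM and 8 under 10 TPM. Over all 21 libraries, the ranges of all 38 neighbouring pairs in this order overlapped. These ranges mix the 4 groups, and pairs were not compared within a group. For example, Calcr and Rian had means of 346 and 98.9 TPM in AGRP fed, but 2.14 and 141 TPM in POMC fed libraries.

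**Figure D1:**
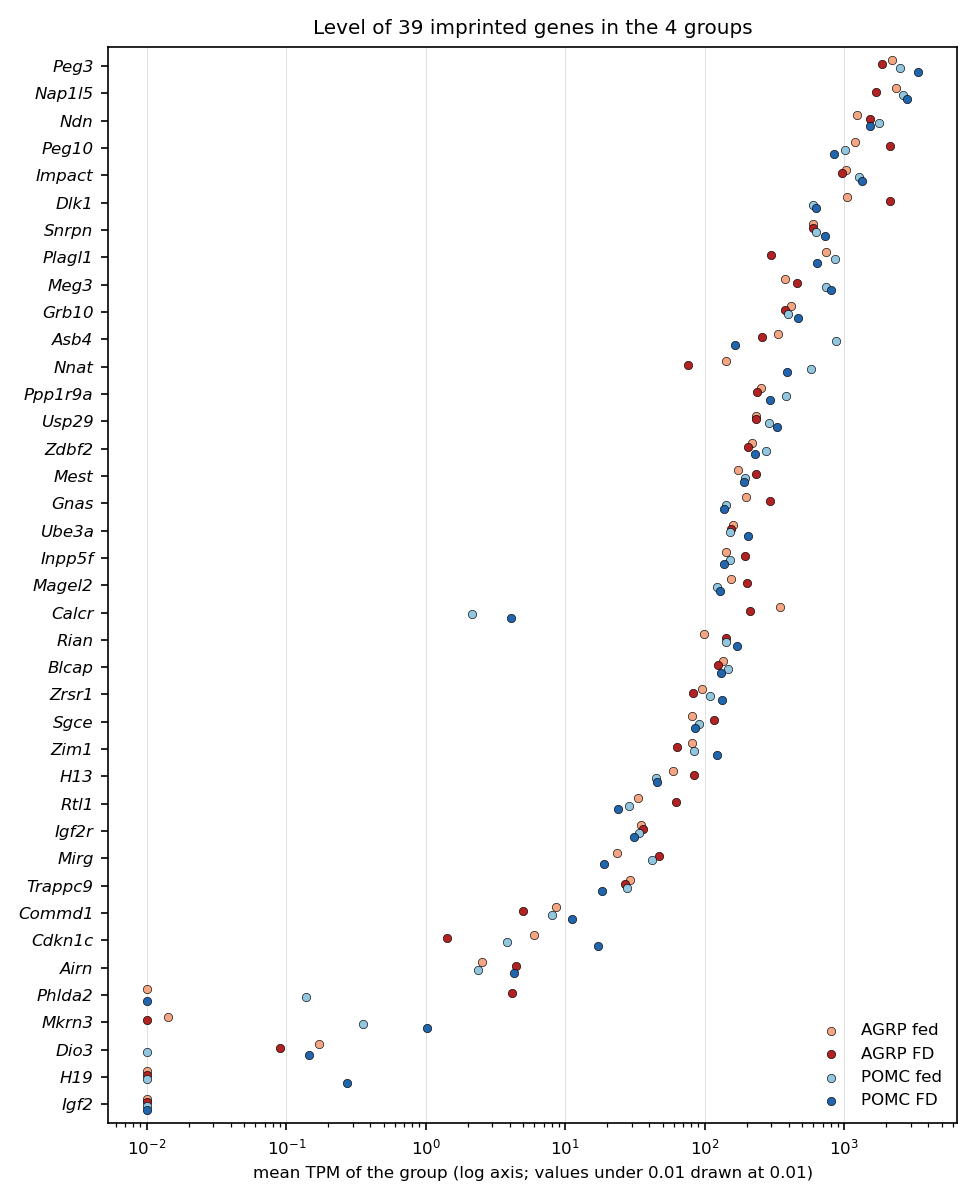
Mean level of 39 imprinted genes in TPM (scaled to gene length and library size, log axis, values under 0.01 drawn at 0.01), ordered by the mean of the 4 groups, with 1 point per group. The groups lie close together for most genes, while Calcr is low in both POMC groups, Asb4 is highest in POMC fed and Dlk1 and Peg10 are highest in AGRP FD.

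Asb4 encodes an ankyrin repeat and SOCS box protein, the substrate-binding subunit of a Cullin-5 ubiquitin ligase, and is read from the maternal copy. It lies on chromosome 6 at chr6:5383385-5433022 (mm10). The reference holds 2 start sites for it, and the 250 bases before each are shown here because the log2 fold change of Asb4 under deprivation was the largest of any member in either cell type. Capitals would mark the hexamer TGCCGC or its reverse complement, the core of the site bound by ZFP57, a protein that protects imprinted methylation, and neither window holds it.
Asb4, chr6:5383136-5383385, plus strand: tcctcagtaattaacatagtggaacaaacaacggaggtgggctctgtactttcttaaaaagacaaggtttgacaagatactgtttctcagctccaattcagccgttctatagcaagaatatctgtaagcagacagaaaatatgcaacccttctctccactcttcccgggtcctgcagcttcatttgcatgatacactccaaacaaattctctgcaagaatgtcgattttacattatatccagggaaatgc
Asb4, chr6:5390160-5390409, plus strand: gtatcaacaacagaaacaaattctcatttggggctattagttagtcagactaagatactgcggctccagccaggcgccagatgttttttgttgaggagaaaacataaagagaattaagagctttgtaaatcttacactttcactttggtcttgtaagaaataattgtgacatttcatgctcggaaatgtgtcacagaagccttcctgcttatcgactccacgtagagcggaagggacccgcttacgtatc

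In POMC neurons Asb4 fell with deprivation. POMC fed replicates 1 to 5 held 1119, 1667, 769, 899 and 1154 normalized CPM of Asb4, and POMC FD replicates 1 to 5 held 127, 230.2, 194, 196 and 219. Every fed library lay above every FD library, and the lowest fed value was over 3 times the highest FD value. The log2 fold change was −2.54 ± 0.20, adjusted p = 4.1e-09 (SE, edgeR quasi-likelihood test with Benjamini-Hochberg adjustment over 16513 genes, 95% interval −2.95 to −2.12), a 5.80-fold decrease. The ± of a log2 fold change is this SE, computed as the size of the change over the square root of its F statistic. Among libraries of the 1 µl spike-in set, 3 FD and 3 fed, the log2 difference was −2.37 (two-sided exact permutation p = 0.1, the smallest such a design can give), and without POMC fed replicates 1 and 2 the log2 fold change was −2.28 (adjusted p = 1.0e-07). Vim, which tanycytes express, moved along, at 33.7 to 81.4 normalized CPM in POMC fed and 7.23 to 31.2 in POMC FD libraries, without overlap (−1.26 ± 0.35, adjusted p = 0.091), and the part of such cells in the change of Asb4 was not tested.

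Asb4 was not called in AGRP neurons. AGRP fed libraries held 372, 390.5, 318, 384 and 401 normalized CPM of Asb4, and the lowest, median and highest of the 6 AGRP FD libraries were 198, 360.1 and 423. The groups overlapped, the log2 fold change was −0.11 ± 0.18, adjusted p = 0.79, and its 95% interval ran from −0.49 to 0.26. The change in AGRP neurons exceeded that in POMC neurons by 2.42 ± 0.27, adjusted p = 8.6e-07 (log2, interaction term). The order of the cell types turned with the state: Asb4 was lower in AGRP than in POMC neurons when fed (−1.59 ± 0.20, adjusted p = 7.8e-07, no overlap) and higher when FD (0.84 ± 0.19, adjusted p = 0.0015), where AGRP FD replicate 5, at 198 CPM, fell among the POMC FD libraries.

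Gnas encodes the stimulatory G protein alpha subunit, which carries the signal of receptors to adenylyl cyclase, together with XLαs and NESP55 from upstream starts. Gnas lies at chr2:174284319-174346744, and its counts are summed over all its starts, so its products cannot be told apart here. The reference gives 4 start sites for it, and the window before the most downstream one, from which the G protein subunit itself is read, is shown for its base composition; it holds no TGCCGC on either strand.
Gnas, chr2:174329756-174330005, plus strand: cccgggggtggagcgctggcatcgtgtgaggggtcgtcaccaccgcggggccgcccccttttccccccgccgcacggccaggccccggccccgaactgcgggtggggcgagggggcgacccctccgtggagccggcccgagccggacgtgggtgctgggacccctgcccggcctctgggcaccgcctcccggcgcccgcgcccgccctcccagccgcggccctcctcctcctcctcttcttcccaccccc

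Gnas rose in AGRP neurons and was not called in POMC neurons. AGRP fed libraries held 618, 674, 596, 574 and 472 normalized CPM, and the lowest, median and highest AGRP FD libraries held 645, 1007 and 1350.4. All but AGRP FD replicate 1 lay above every fed library, and the log2 fold change was 0.83 ± 0.16, adjusted p = 9.2e-04. Within the spike-in sets the log2 difference was 0.90 (10 µl, 2 FD and 2 fed libraries), 1.13 (1 µl, 1 and 1) and 0.67 (by cell number, 3 and 2). POMC fed libraries held 597, 533, 397, 445 and 430.4 and POMC FD libraries 309, 423, 435, 458 and 481, groups that overlapped, with a log2 fold change of −0.19 ± 0.17, adjusted p = 0.72 (95% interval −0.53 to 0.15). The changes differed by 1.02 ± 0.23, adjusted p = 0.0067 between the cell types. The cell types overlapped in the fed state, with an AGRP over POMC log2 fold change of 0.29 ± 0.17, adjusted p = 0.38, and were apart in the FD state, at 1.31 ± 0.17, adjusted p = 5.8e-07, where every AGRP library lay above every POMC library.

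In AGRP neurons more imprinted genes were higher than lower after deprivation. Of the 34 members tested, 12 were called at an adjusted p under 0.05, 11 higher and 1 lower in AGRP FD, which is 35.3% of the members beside 10.3% of all genes tested. By direction these were 32.4% higher and 2.94% lower, beside 5.87% and 4.43% of all genes. The median log2 fold change was 0.23 over the members and −0.02 over all genes. In 8 of the 34 members (23.5%) the fed and FD libraries did not overlap, beside 7.64% of all genes. The study also asked of a differentially expressed gene a log2 change beyond 1 in size and at least one group mean above 20 CPM, and 5 members met this (Dlk1, Mirg, Peg10, Rtl1 and Plagl1), beside 4.46% of all genes. Within each of the 3 spike-in sets, of which the 1 µl set is a single FD and a single fed library, the 12 had the same sign as overall; they were chosen on these same libraries, so this is no separate support. Without AGRP fed replicate 3, the count fell from 12 to 7. Of the 12, 4 lie in the Dlk1-Dio3 cluster, and Gnas heads a list chosen with earlier results of these data known. Many members were abundant, while 8205 of the 16513 genes tested had a group mean above 20 CPM. Shares of members and of all genes were not matched for abundance, here or below. Among 23 other imprinted genes tested, 1 was called (4.35%), as given further on.

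**Figure D2:**
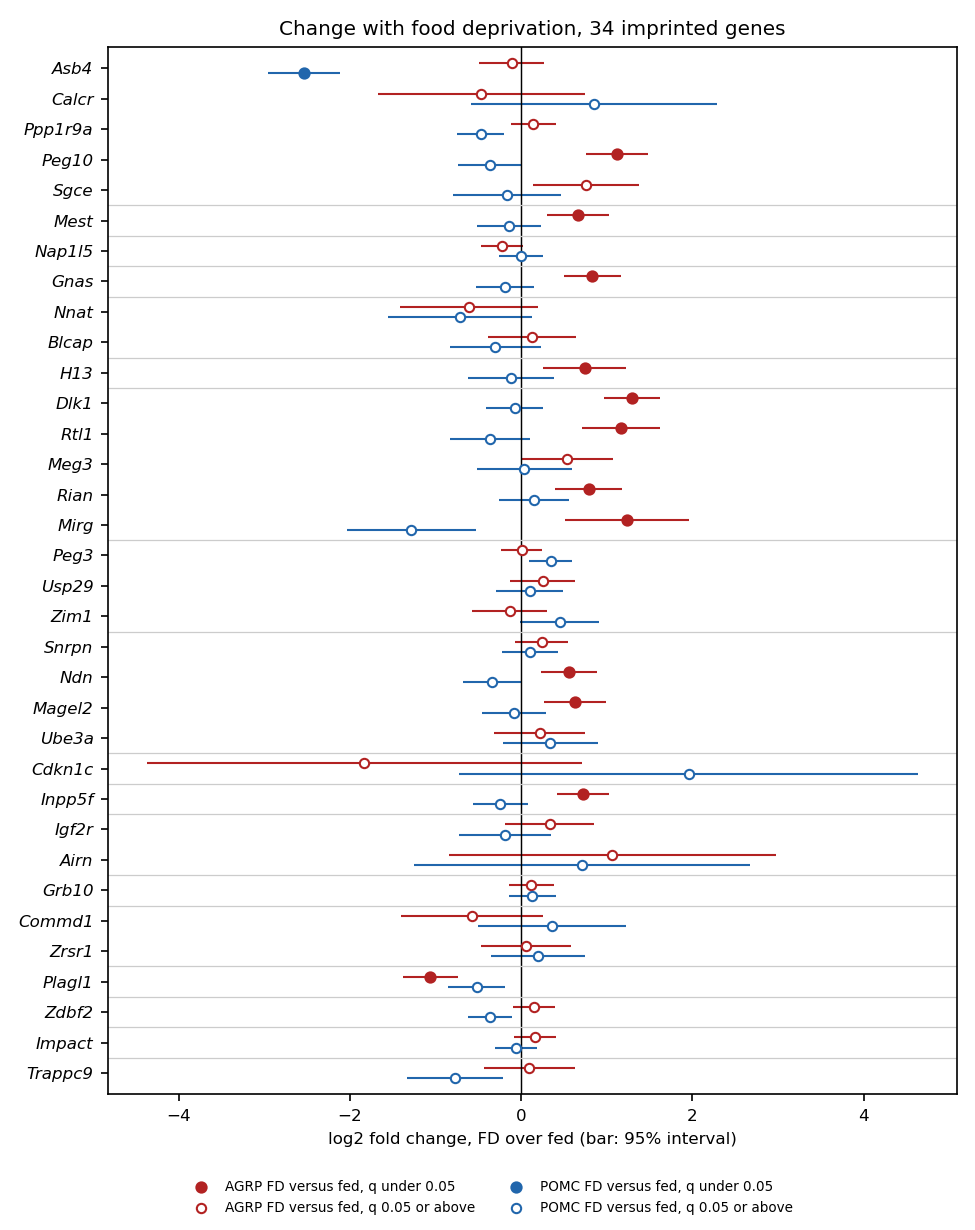
Change with food deprivation of the 34 imprinted genes tested, as log2 fold change of FD over fed (horizontal axis) in AGRP (red) and POMC (blue) neurons, with 95% intervals as bars. Filled points passed an adjusted p under 0.05, and grey lines separate loci. The 12 filled red points include 11 to the right of 0 and Plagl1 to its left, and the only filled blue point is Asb4.

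In the Dlk1-Dio3 cluster on chromosome 12, 4 of 5 tested members were higher in AGRP FD. Its paternal copy is read for the proteins DLK1 and RTL1, a retrotransposon-derived protein, and the deiodinase DIO3, and its maternal copy for the long noncoding RNAs Meg3, Rian, which carries small nucleolar RNAs, and Mirg, which carries microRNAs. The window before the start of Dlk1 (gene body at chr12:109452848-109463336) holds no TGCCGC and is shown beside those of Asb4 and Gnas.
Dlk1, chr12:109452573-109452822, plus strand: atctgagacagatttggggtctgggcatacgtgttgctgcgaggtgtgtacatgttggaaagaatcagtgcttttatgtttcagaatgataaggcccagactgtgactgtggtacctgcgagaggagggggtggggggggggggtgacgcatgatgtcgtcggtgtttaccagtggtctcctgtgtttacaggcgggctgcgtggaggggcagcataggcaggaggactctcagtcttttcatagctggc

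AGRP fed libraries held 1468, 1361, 1211, 1416 and 1615 normalized CPM of Dlk1, and the lowest, median and highest AGRP FD libraries held 2529, 3576 and 4302. The groups did not overlap, and Dlk1 rose by a log2 fold change of 1.29 ± 0.16, adjusted p = 2.0e-06, or 2.45-fold. Rtl1 stood at 61.0, 41.0, 59.0, 73.5 and 65.5 in AGRP fed and at 104, 132 and 171 (lowest, median and highest) in AGRP FD libraries, again without overlap, with a log2 fold change of 1.17 ± 0.22, adjusted p = 7.0e-04. In POMC neurons neither gene was called. Dlk1 was at 942 ± 246 in fed and 893 ± 155 in FD libraries (SD, n = 5 each), and Rtl1 at 58.3 ± 10.0 and 45.4 ± 16.5. The log2 fold changes there were −0.08 ± 0.16, adjusted p = 0.91 for Dlk1 and −0.36 ± 0.23, adjusted p = 0.56 for Rtl1. The difference between the cell types was 1.37 ± 0.23, adjusted p = 2.0e-04 for Dlk1 and 1.53 ± 0.32, adjusted p = 0.0029 for Rtl1.

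Of the noncoding RNAs of the cluster, Rian was at 290.0, 209, 305, 159 and 169.8 normalized CPM in AGRP fed and at 289, 339 and 631 (lowest, median and highest) in AGRP FD libraries, groups that overlapped, with a log2 fold change of 0.79 ± 0.19, adjusted p = 0.0068. Mirg was at 22.4, 29.98, 24.6, 25.7 and 25.9 and at 22.6, 68.7 and 91.7. AGRP FD replicates 2 and 6 lay among the fed libraries while the other 4 lay above them all, and the log2 fold change was 1.24 ± 0.36, adjusted p = 0.023. Meg3, the most abundant of the 3 in TPM, was at 1549 ± 474 (SD, n = 5) in AGRP fed and 2237 ± 916 (SD, n = 6) in AGRP FD libraries and did not pass the test (0.53 ± 0.26, adjusted p = 0.23). In POMC neurons the log2 fold changes of Meg3 and Rian were 0.04 ± 0.27, adjusted p = 0.98 and 0.15 ± 0.20, adjusted p = 0.84, in that order. Mirg had the opposite sign there, at −1.28 ± 0.37, adjusted p = 0.11, from 42.7, 99.8, 46.7, 27.2 and 45.3 in fed to 11.8, 31.9, 19.8, 28.1 and 16.0 in FD libraries. Its change differed between the cell types (2.52 ± 0.51, adjusted p = 0.0023). The call of Mirg in AGRP neurons was lost without AGRP fed replicate 1 or 3 or AGRP FD replicate 3 or 4 (adjusted p from 0.053 to 0.061).

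The maternal RNAs of this cluster carry microRNAs that the libraries did not measure as such. Within the gene bodies in the reference, 14 hairpins with 26 mature microRNAs lie in Mirg, 7 hairpins with 13 mature microRNAs in Rtl1 and 1 hairpin with 2 mature microRNAs in Meg3. Of the 7 hairpins in Rtl1, 6 lie on the plus strand while Rtl1 is read from the minus strand. The reads were counted without regard to strand, so a maternal transcript across these hairpins and the paternal Rtl1 mRNA cannot be told apart. The 41 mature microRNAs of the cluster found this way held 40 different seeds (bases 2 to 8). The 1 shared seed belongs to a pair in Mirg, shown with the seed in capitals.
mmu-miR-453, chr12:109735669-109735692, plus strand: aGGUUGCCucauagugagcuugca
mmu-miR-496a-5p, chr12:109739132-109739152, plus strand: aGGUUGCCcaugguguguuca

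In the Peg10-Asb4 cluster on chromosome 6, Peg10 moved with deprivation in AGRP neurons. Peg10 (paternal, chr6:4747305-4760517) was at 2165, 2313, 1793, 1821 and 3176 normalized CPM in AGRP fed and at 2572, 4991 and 6790.2 (lowest, median and highest) in AGRP FD libraries. AGRP FD replicate 1 lay below the highest fed library and the other 5 lay above, and the log2 fold change was 1.12 ± 0.18, adjusted p = 5.9e-05. In POMC neurons the sign was negative, from 2119, 2058, 2225, 2239.9 and 2141 to 1771, 1489, 1526, 1658 and 1908, libraries that did not overlap although the test was not passed (−0.37 ± 0.18, adjusted p = 0.41). The difference between the cell types was 1.49 ± 0.25, adjusted p = 2.6e-04. Its head-to-head neighbour Sgce, which encodes epsilon-sarcoglycan, had log2 fold changes of 0.76 ± 0.30, adjusted p = 0.12 in AGRP and −0.16 ± 0.31, adjusted p = 0.90 in POMC neurons. Ppp1r9a, which encodes the actin-binding neurabin, had 0.14 ± 0.13, adjusted p = 0.59 in AGRP and −0.47 ± 0.13, adjusted p = 0.11 in POMC neurons. For Ppp1r9a the difference between the cell types passed the test (0.61 ± 0.19, adjusted p = 0.044), but the call was lost with DESeq2 (adjusted p = 0.052), RLE scaling (adjusted p = 0.069) or no count filter (adjusted p = 0.062). It was also lost without any 1 of 13 libraries, in AGRP fed replicate 2 to 5, AGRP FD replicate 2, 3 or 5, POMC fed replicate 3 to 5 and POMC FD replicate 1, 4 or 5 (adjusted p from 0.0501 to 0.0974).

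**Figure D3:**
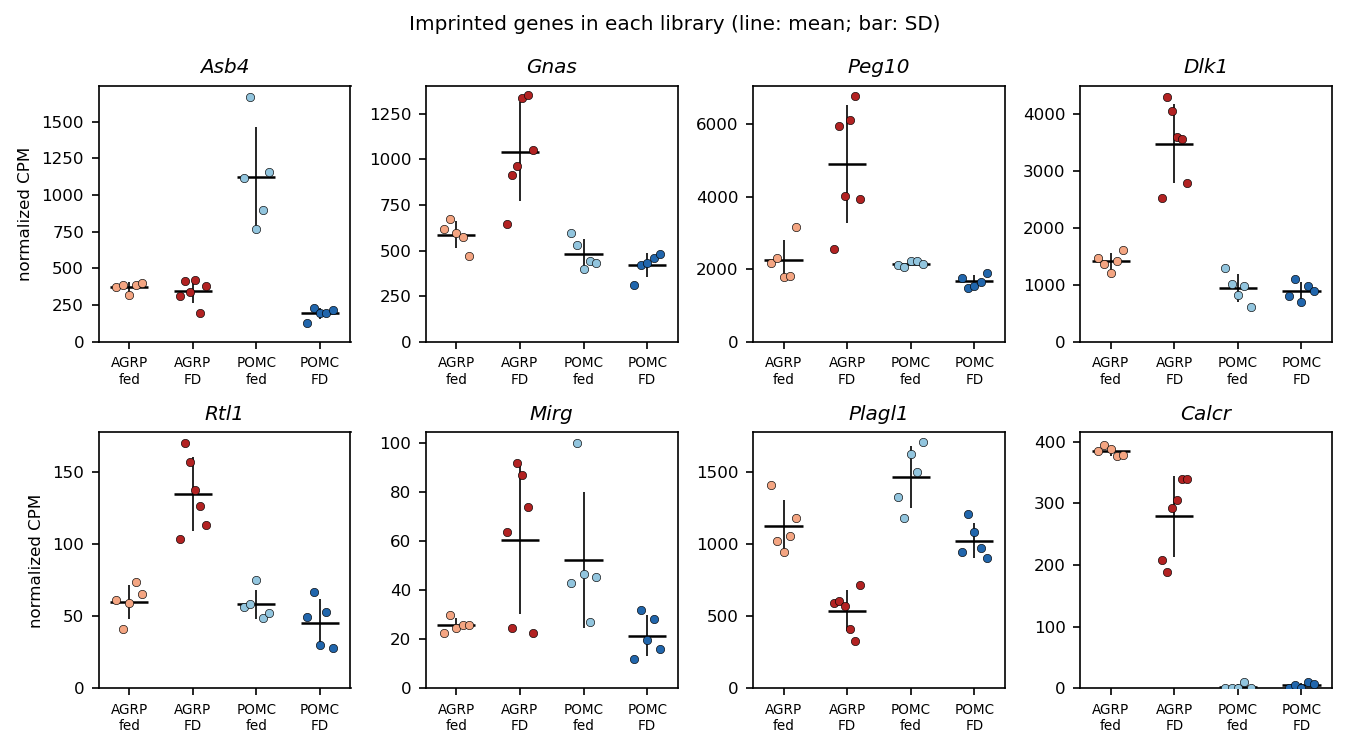
Normalized CPM of 8 imprinted genes in each library (1 point per mouse; horizontal line, group mean; vertical bar, SD; vertical axes from 0), for AGRP fed, AGRP FD, POMC fed and POMC FD. Asb4 drops in POMC FD, where libraries lie between 127 and 230.2 CPM, Gnas, Peg10, Dlk1 and Rtl1 are highest in AGRP FD, Plagl1 is lowest in AGRP FD, and Calcr is near 0 in POMC libraries.

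Plagl1 was the member that fell in AGRP neurons. It encodes a zinc finger transcription factor read from the paternal copy, at chr10:13090787-13131694, and the 250 bases before its start hold 1 TGCCGC or reverse complement (capitals).
Plagl1, chr10:13090582-13090831, plus strand: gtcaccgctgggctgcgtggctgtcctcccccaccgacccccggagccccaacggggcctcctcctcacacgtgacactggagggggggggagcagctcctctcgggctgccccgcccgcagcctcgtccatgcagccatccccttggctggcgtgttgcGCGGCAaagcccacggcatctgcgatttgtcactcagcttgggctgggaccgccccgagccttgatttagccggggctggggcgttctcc
AGRP fed libraries held 1409.9, 1018, 941, 1056 and 1177 normalized CPM and the lowest, median and highest AGRP FD libraries 330.2, 580.2 and 717, without overlap and with a log2 fold change of −1.06 ± 0.16, adjusted p = 2.8e-05. POMC fed libraries held 1322, 1178, 1623, 1496 and 1702 and POMC FD libraries 943, 1208, 1082, 974 and 904. They overlapped in POMC FD replicate 2 alone, and the log2 fold change there, −0.52 ± 0.16, adjusted p = 0.15, missed the threshold. The difference between the cell types missed it too (−0.54 ± 0.23, adjusted p = 0.16).

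Mest, Ndn, Magel2, Inpp5f and H13 made up the rest of the members called in AGRP neurons, each with a change under 2-fold. Mest encodes an alpha/beta hydrolase-fold protein read from the paternal copy (chr6:30738049-30748455), and the window before one of its starts carries the ZFP57 hexamer (capitals).
Mest, chr6:30737800-30738049, plus strand: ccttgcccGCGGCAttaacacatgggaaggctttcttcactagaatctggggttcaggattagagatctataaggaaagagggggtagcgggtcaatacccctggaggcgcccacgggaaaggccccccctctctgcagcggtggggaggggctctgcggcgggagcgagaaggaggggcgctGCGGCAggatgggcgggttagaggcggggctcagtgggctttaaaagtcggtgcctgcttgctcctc
It was at 128, 111, 88.8, 153 and 151 normalized CPM in AGRP fed and at 162, 184 and 273 (lowest, median and highest) in AGRP FD libraries, without overlap (0.67 ± 0.18, adjusted p = 0.014). In POMC neurons it was at 159.6 ± 31.9 in fed and 145 ± 21.3 in FD libraries (SD, n = 5 each), with a log2 fold change of −0.14 ± 0.18, adjusted p = 0.84. The call in AGRP neurons was lost without AGRP fed replicate 3 (adjusted p = 0.057).

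Ndn and Magel2 encode MAGE-family proteins of the Prader-Willi region on chromosome 7, both read from the paternal copy. Ndn was at 593, 739, 560.3, 485 and 528 in AGRP fed and at 635, 865 and 1057 (lowest, median and highest) in AGRP FD libraries, where replicates 1 and 3 lay below the highest fed library (0.56 ± 0.16, adjusted p = 0.022). Magel2 was at 203, 171, 181, 250.1 and 212 and 257, 298 and 391, without overlap (0.63 ± 0.18, adjusted p = 0.018). The change of Ndn in POMC neurons was −0.34 ± 0.17, adjusted p = 0.40, and it differed between the cell types by 0.90 ± 0.23, adjusted p = 0.015. That of Magel2 was −0.09 ± 0.18, adjusted p = 0.91. Snrpn, the splicing protein of the same cluster, and Ube3a, a ubiquitin ligase read from the maternal copy in neurons, were not called by edgeR in any comparison, while with the spike-in set as a block Snrpn was lower in AGRP than in POMC neurons of FD mice (−0.39, adjusted p = 0.015). The call of Ndn was lost without AGRP fed replicate 3, 4 or 5 or AGRP FD replicate 4 (adjusted p from 0.052 to 0.073), and that of Magel2 without AGRP fed replicate 2 or 3 (adjusted p from 0.055 to 0.059). Without POMC fed replicates 1 and 2, the difference of Ndn between the cell types was 0.73 (adjusted p = 0.056).

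Inpp5f, a phosphoinositide phosphatase, was at 246, 212, 246, 221 and 287 in AGRP fed and at 292, 380.5 and 515 (lowest, median and highest) in AGRP FD libraries, without overlap (0.72 ± 0.15, adjusted p = 0.0016), and its change exceeded that in POMC neurons by 0.96 ± 0.22, adjusted p = 0.0055. H13, the signal peptide peptidase, was at 85.9, 119, 84.2, 105 and 106 and 126, 159 and 234, also without overlap. Its log2 fold change was 0.74 ± 0.24, adjusted p = 0.040, and the call was lost without AGRP fed replicate 1, 3, 4 or 5 or AGRP FD replicate 1, 3, 4 or 5 (adjusted p from 0.052 to 0.11).

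In POMC neurons Asb4 was the 1 member called of 34 (2.94%, lower), beside 0.375% of all genes tested in both directions and 0.194% lower. Asb4 heads the list, which was chosen with earlier results of these data known, and the study itself reported its fall. This share is therefore no separate support. At an unadjusted p under 0.05 there were 9 members. The share of all genes at that threshold was not counted, so no excess can be read from this number. The median log2 fold change was −0.10 over the members and −0.02 over all genes. In 3 members (8.82%) the fed and FD libraries did not overlap, namely Asb4, Peg10 and Ppp1r9a, beside 2.34% of all genes. All 3 lie in the Peg10-Asb4 cluster. Mirg, which the main test did not call (−1.28 ± 0.37, adjusted p = 0.11), was called by DESeq2 (adjusted p = 0.032). Without POMC fed replicate 4, which held most of the Calcr counts of its group, Calcr was called higher in POMC FD, at a log2 fold change of 3.13 (adjusted p = 0.011).

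The change with deprivation differed between the cell types in 9 members of 34 (26.5%), 9 with the higher change in AGRP neurons and 0 with the lower, beside 6.71% of all genes, 4.08% higher and 2.63% lower. These were Asb4, Gnas, Dlk1, Rtl1, Mirg, Peg10, Ppp1r9a, Ndn and Inpp5f. Asb4 and Gnas head a list chosen with earlier results of these data known, so their part in this share is no separate support. The median of the difference was 0.50 over the members and 0.01 over all genes. Without POMC fed replicates 1 and 2 the count was also 9, with Ndn lost (adjusted p = 0.056) and Zdbf2 gained (0.65, adjusted p = 0.022). A library left out added a call for Calcr, with the lower change in AGRP neurons (−3.59, adjusted p = 0.0030), and for H13 (adjusted p = 0.042), both without POMC fed replicate 4, and for Magel2 (without POMC fed replicate 5, adjusted p = 0.037), Zdbf2 (without AGRP FD replicate 1, adjusted p = 0.030) and Mest (without any 1 of 7 libraries, adjusted p from 0.030 to 0.049). Mest was also added by DESeq2 (adjusted p = 0.039), Plagl1 by limma-voom, with the lower change in AGRP neurons (−0.66, adjusted p = 0.035), and Zdbf2 and Rian by the spike-in set as a block (adjusted p = 0.015 and 0.016).

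In fed mice, AGRP and POMC neurons differed in 10 members of 34 (29.4%), beside 7.57% of all genes tested. Of these, 2 were higher and 8 lower in AGRP neurons, 5.88% and 23.5% of the members beside 3.33% and 4.24% of all genes. The median log2 fold change was −0.29 over the members and −0.01 over all genes. In FD mice 15 members (44.1%) differed, 10 higher and 5 lower, beside 18.6% of all genes, 9.28% higher and 9.27% lower. The libraries of the cell types did not overlap in 8 members (23.5%) when fed and in 13 (38.2%) when FD, beside 8.93% and 11.4% of all genes. The study's criteria were met by 4 members when fed and 8 when FD, beside 4.02% and 8.11% of all genes. Both comparisons share libraries with the deprivation comparisons. The 10 and the 15 had the same sign in each of the 2 spike-in sets that held both cell types, where again the members were chosen on the same libraries. The 1 µl set held 1 AGRP library in either state. On the POMC side, the fed set by cell number held only POMC fed replicates 1 and 2, the libraries that stood apart.

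**Figure D4:**
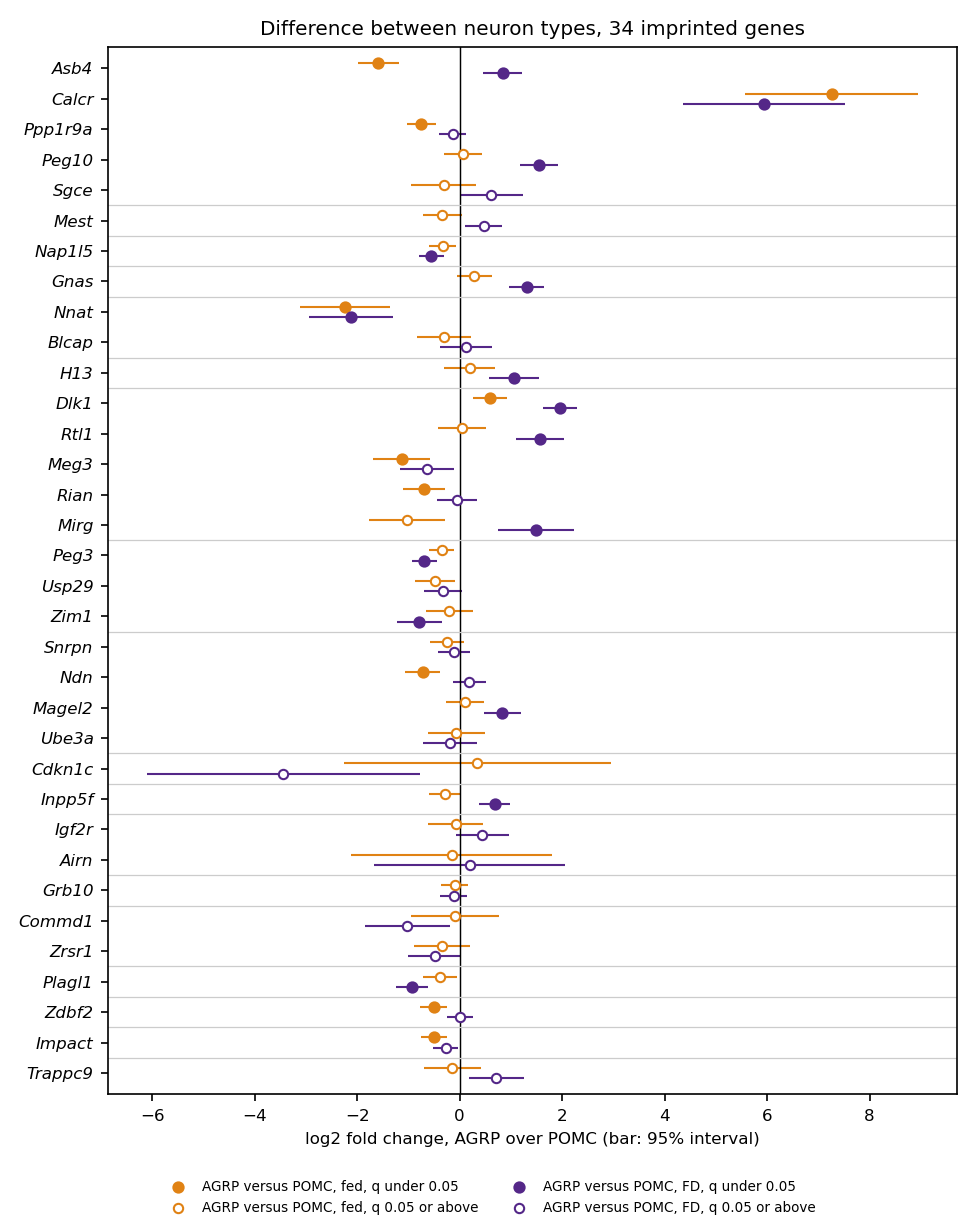
Difference between the cell types for the 34 imprinted genes tested, as log2 fold change of AGRP over POMC (horizontal axis) in fed (orange) and FD (purple) mice, with 95% intervals as bars. Filled points passed an adjusted p under 0.05. Calcr stands far to the right in both states, Nnat to the left in both, and Asb4 lies left of 0 when fed and right of 0 when FD.

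Calcr, the calcitonin receptor, which also forms amylin receptors and couples to the Gnas product, was the member most unequal between the cell types. AGRP fed libraries held 385, 395, 388, 377 and 378 normalized CPM, and the lowest, median and highest AGRP FD libraries 188, 299 and 340.0. POMC fed libraries held 0, 0.222, 1.14, 10.8 and 0.616 and POMC FD libraries 0.372, 5.29, 1.01, 10.2 and 6.60. All AGRP libraries lay above all POMC libraries, with log2 fold changes of 7.26 ± 0.83, adjusted p = 1.6e-07 when fed and 5.95 ± 0.77, adjusted p = 9.6e-07 when FD. AGRP fed and FD libraries did not overlap either, yet the change with deprivation did not pass the test (−0.46 ± 0.59, adjusted p = 0.72), while limma-voom called it (adjusted p = 0.049).

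Nnat, which encodes the small endoplasmic reticulum protein neuronatin and lies inside an intron of Blcap, went the other way. It was at 21.7, 47.4, 115, 60.0 and 43.6 in AGRP fed and 270.3, 396, 101, 451 and 142 in POMC fed libraries, where AGRP fed replicate 3 lay above POMC fed replicate 3 (−2.24 ± 0.43, adjusted p = 5.7e-04). In FD mice the lowest, median and highest AGRP libraries held 18.5, 38.4 and 56.1 and the POMC libraries 88.8, 92.8, 86.6, 251 and 307, without overlap (−2.13 ± 0.40, adjusted p = 2.2e-04). Its host Blcap was not called in any comparison, with −0.31 ± 0.26, adjusted p = 0.59 when fed and 0.12 ± 0.25, adjusted p = 0.80 when FD.

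Besides Asb4 and Nnat, 6 members were lower in AGRP than in POMC neurons when fed. Meg3 was at 2072, 1122, 2013, 1457 and 1081 in AGRP and 2128, 3422, 3580.5, 3553 and 4292 in POMC libraries (−1.13 ± 0.28, adjusted p = 0.0073), without overlap. Rian was at 159 to 305 against 311 to 422 (−0.69 ± 0.20, adjusted p = 0.027), and Ndn at 485 to 739 against 763 to 1355 (−0.72 ± 0.17, adjusted p = 0.0047). Ppp1r9a was at 864 to 1034 against 1345 to 2084 (−0.75 ± 0.14, adjusted p = 2.9e-04). The paternal genes Zdbf2, a zinc finger gene, and Impact were at 728 to 839 against 896 to 1338 (−0.50 ± 0.13, adjusted p = 0.0097) and 864 to 1138 against 1372 to 1571 (−0.50 ± 0.12, adjusted p = 0.0083). None of these 6 overlapped between the cell types. Dlk1 was higher in AGRP neurons, at 1211 to 1615 against 619 to 1286 (0.59 ± 0.16, adjusted p = 0.021), with overlap. The call of Dlk1 was lost without AGRP fed replicate 5 or POMC fed replicate 3 or 5 (adjusted p from 0.055 to 0.069) and that of Rian without AGRP fed replicate 2, 4 or 5 or POMC fed replicate 5 (adjusted p from 0.062 to 0.096). Without POMC fed replicates 1 and 2, the calls of Ndn (adjusted p = 0.059) and Impact (adjusted p = 0.051) were lost, and Peg3 and Usp29, lower in AGRP neurons, were gained (adjusted p = 3.0e-04 and 0.048). Peg3 was also gained without POMC fed replicate 1 or 2 (adjusted p = 0.024 and 0.016), and Mirg without POMC fed replicate 4 (adjusted p = 0.047). limma-voom added Peg3 and Nap1l5 (adjusted p = 0.042 and 0.049), and the fit of the fed groups alone added Mirg (adjusted p = 0.038).

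In FD mice the members higher in AGRP neurons were those of the AGRP deprivation response in large part. Dlk1 was at 2529 to 4302 normalized CPM in AGRP against 698 to 1094 in POMC libraries (1.96 ± 0.16, adjusted p = 2.1e-10), Peg10 at 2572 to 6790.2 against 1489 to 1908 (1.55 ± 0.18, adjusted p = 1.1e-07), and Rtl1 at 104 to 171 against 27.9 to 67.1 (1.57 ± 0.23, adjusted p = 5.1e-06). Mirg (1.49 ± 0.36, adjusted p = 0.0031), H13 (1.06 ± 0.24, adjusted p = 0.0015), Magel2 (0.83 ± 0.18, adjusted p = 8.7e-04) and Inpp5f (0.68 ± 0.15, adjusted p = 0.0013) were higher as well. Of the 12 members called in AGRP neurons with deprivation and the 15 called here, 9 were shared, 75.0% of the first and 60.0% of the second, and both comparisons use the same AGRP FD libraries.

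The members lower in AGRP neurons of FD mice were Nnat, Plagl1 and 3 that were not called with deprivation in either cell type. Peg3 was at 5082 to 5751 against 7615 to 10222 (−0.69 ± 0.12, adjusted p = 4.8e-05) and Nap1l5 at 965 to 1255 against 1299 to 1908 (−0.55 ± 0.12, adjusted p = 0.0013), both without overlap. Plagl1 was at 330.2 to 717 against 904 to 1208 (−0.93 ± 0.16, adjusted p = 4.7e-05). Zim1, a zinc finger gene beside Peg3 read from the maternal copy, was at 53.2 to 94.8 against 94.4 to 211 (−0.79 ± 0.22, adjusted p = 0.0091). The call of Zim1 was lost without POMC FD replicate 1 (adjusted p = 0.069) and with the spike-in set as a block (adjusted p = 0.055). A library left out added a call for Meg3 (without AGRP FD or POMC FD replicate 5), Trappc9 (without AGRP FD replicate 4 or POMC FD replicate 3), Mest (without AGRP FD replicate 6 or POMC FD replicate 1), Commd1 (without POMC FD replicate 5), Cdkn1c (without AGRP FD replicate 3), Impact (without AGRP FD replicate 2) and Sgce (without POMC FD replicate 1), with adjusted p from 0.011 to 0.048. Meg3 was also called by limma-voom (adjusted p = 0.049) and without the count filter (adjusted p = 0.047), and Impact with the spike-in set as a block (adjusted p = 0.040).

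In 10 of the 18 loci the most abundant member was not called with deprivation in either cell type, among them Grb10, Igf2r and Cdkn1c, which are given further on. Peg3 was at 5441 ± 467 in AGRP fed and 5463 ± 261 in AGRP FD, and at 6936 ± 1583 in POMC fed and 8793 ± 1094 in POMC FD libraries (normalized CPM, mean ± SD, n = 5, with n = 6 in AGRP FD), with log2 fold changes of 0.01 ± 0.12, adjusted p = 0.99 and 0.34 ± 0.12, adjusted p = 0.20. For Nap1l5 the log2 fold changes were −0.22 ± 0.12, adjusted p = 0.28 in AGRP and −0.00 ± 0.13, adjusted p = 1.00 in POMC neurons, and for Nnat −0.61 ± 0.39, adjusted p = 0.40 and −0.72 ± 0.41, adjusted p = 0.51. Those of Zdbf2 were 0.15 ± 0.12, adjusted p = 0.53 and −0.37 ± 0.13, adjusted p = 0.20, and those of Impact 0.16 ± 0.12, adjusted p = 0.47 and −0.06 ± 0.12, adjusted p = 0.91. Zrsr1, a splicing factor gene that lies inside Commd1, had 0.05 ± 0.26, adjusted p = 0.94 and 0.19 ± 0.27, adjusted p = 0.85, and Trappc9, a vesicle trafficking gene, 0.10 ± 0.26, adjusted p = 0.89 and −0.77 ± 0.27, adjusted p = 0.20. In POMC neurons the unadjusted p was under 0.05 for Peg3, with a positive sign, and for Zdbf2 and Trappc9, with a negative one.

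The 12 tested members that edgeR called in none of the 5 comparisons were Airn, Blcap, Cdkn1c, Commd1, Grb10, Igf2r, Sgce, Snrpn, Trappc9, Ube3a, Usp29 and Zrsr1. In the FD comparison of the cell types some of them passed under another setting, namely Commd1 and Trappc9 with DESeq2 (adjusted p = 0.036 and 0.031) and Snrpn and Sgce with the spike-in set as a block (adjusted p = 0.015 and 0.028). Sgce was also called with deprivation when the AGRP groups were fitted alone (0.75, adjusted p = 0.043). Grb10, an adaptor of the insulin receptor that is read from the paternal copy in neurons, had narrow intervals, from −0.15 to 0.38 in AGRP and −0.14 to 0.40 in POMC neurons for the log2 change with deprivation. The same intervals were −0.08 to 0.55 and −0.23 to 0.42 for Snrpn, and −0.18 to 0.85 and −0.72 to 0.35 for Igf2r, the receptor that clears the growth factor IGF2. Cdkn1c, a cell cycle inhibitor, was sparse: it held 0, 0.272 and 3.22 CPM (lowest, median and highest) in AGRP FD and 13.7, 10.1, 9.85, 11.1 and 4.78 in POMC FD libraries, without overlap but short of the threshold (−3.44 ± 1.30, adjusted p = 0.065). Cdkn1c was called in 5 of the alternatives for this comparison (limma-voom, no count filter, both groups alone, the spike-in set as a block and without AGRP FD replicate 3), with adjusted p from 0.0026 to 0.046.

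The 5 members not tested lay at or near 0 in most libraries. Igf2, the fetal growth factor, had at most 1 count in any library, Dio3 at most 6 and H19 at most 16. Mkrn3, a ring finger protein gene of the Prader-Willi region, had at most 43 counts and was above 0 in 4 libraries. Phlda2 was at 0 in 19 of the 21 libraries, at 3 counts in POMC fed replicate 4 and at 119 counts in AGRP FD replicate 2. Igf2, H19, Phlda2 and Cdkn1c lie in the distal chromosome 7 cluster, of which Cdkn1c alone passed the filter.

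The members were then divided by the parental copy that other work assigns to them, as background. The copy read in these neurons was not measured and may differ from the class, in which Igf2r and Ppp1r9a were counted as maternal. Left out of both classes were 4 members of more complex imprinting, namely Gnas, Blcap, Inpp5f and Grb10. Of these, Gnas and Inpp5f were called in AGRP neurons with deprivation. In AGRP neurons with deprivation, 7 of 17 tested paternally read members were called, 6 higher and 1 lower, and 3 of 13 tested maternally read members, all higher, beside the 10.3% of all genes. The medians of the log2 fold changes were 0.25 and 0.14. In the fed comparison of the cell types the counts were 5 of 17 and 5 of 13, beside 7.57% of all genes.

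Promoter sequence was compared over the 32 members with an entry in the RefSeq table (GRCm38.p6, 50 windows of the 250 bases before a start). TGCCGC was found on either strand in 8 windows of 7 members, 16.0% of their windows, beside 8.68% of all 32851 windows. The cyclic AMP response element TGACGTCA, the same on both strands, was found in 3 windows (Meg3, Peg3 and Zdbf2), 6.00% beside 1.55%. The median number of CpG dinucleotides was 10.5 in members and 6.0 in all windows. Both motifs hold a CpG, and the windows were not matched for CpG content. Overlapping windows of nearby starts were counted separately, among them the 2 Mest windows with TGCCGC. A match is only a run of letters, and binding was not measured.

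A further 3 gene lists were described beside the members. Of 30 other imprinted genes, 23 were tested, and 1 was called in AGRP neurons with deprivation (4.35%, beside the 10.3% of all genes). This was Bcl2l1, an inhibitor of apoptosis, at 1.81 ± 0.32, adjusted p = 2.7e-04. None was called in POMC neurons by edgeR, with 4 at an unadjusted p under 0.05, a threshold at which the share of all genes was not counted. Between the cell types, 8 were called when fed (34.8%) and 10 when FD (43.5%), beside 7.57% and 18.6% of all genes. Of these, Klf14 (7.63 ± 1.10, adjusted p = 1.0e-05 when fed), Kcnk9, a potassium channel (6.42 ± 0.71, adjusted p = 8.9e-08), and Slc22a18 (−7.27 ± 2.12, adjusted p = 0.030) had the largest differences when fed.

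The Gs and cyclic AMP pathway, into which the Gnas product feeds, held 23 genes, all tested. In AGRP neurons 8 were called with deprivation (34.8%), 5 higher and 3 lower, beside 10.3% of all genes, 5.87% higher and 4.43% lower. The largest changes were those of Crem, a cyclic AMP-responsive transcription factor (1.94 ± 0.38, adjusted p = 9.0e-04), Gng7, a G protein gamma subunit (−1.81 ± 0.57, adjusted p = 0.036), and Adcy2, an adenylyl cyclase (1.38 ± 0.39, adjusted p = 0.021). In POMC neurons 1 was called, Adcy6, another cyclase (1.06 ± 0.20, adjusted p = 0.0066), which is 4.35% of the list beside 0.375% of all genes. The median log2 fold change of the 23 genes was 0.13 in AGRP and −0.17 in POMC neurons.

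Of 17 genes for ASB proteins, their Cullin-5 ligase and proteins they bind, 14 were tested. This list was also chosen with earlier results of these data known, so its shares are no separate support. None of the 14 was called in AGRP neurons with deprivation by edgeR, with 2 at an unadjusted p under 0.05, again without a share of all genes. In POMC neurons 1 was called (7.14%, beside 0.375% of all genes), Irs4, an insulin receptor substrate that ASB4 is known to bind. It fell with Asb4, at −0.69 ± 0.10, adjusted p = 2.3e-04, and POMC FD libraries held 1044 to 1263 normalized CPM against 1732 to 1942 in fed libraries. Irs4 was higher in AGRP neurons when fed (0.48 ± 0.10, adjusted p = 0.0014) and when FD (1.27 ± 0.10, adjusted p = 3.8e-11), and its change differed between the cell types (0.79 ± 0.14, adjusted p = 3.6e-04).

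Some markers of other cells moved with these comparisons. Of the 26 markers of 6 other cell classes, only those that passed the count filter were tested. These were 4 for astrocytes, 3 for fibroblasts and choroid plexus and 2 for each other class. With deprivation in AGRP neurons 1 was called, the astrocyte gene Aldh1l1, which stayed at or below 6.39 CPM. In fed mice 1 was called between the cell types, the choroid plexus gene Ttr, at 0.806 to 2.97 CPM in AGRP and 9.82 to 47.1 CPM in POMC libraries. Vim was called between FD groups, at 32.3 to 71.8 CPM in AGRP and 7.23 to 31.2 CPM in POMC libraries, and in the difference in change between the cell types (1.89 ± 0.48, adjusted p = 0.014). The summed level of the 4 tanycyte and ependymal markers ran from 26.9 to 75.3 TPM in AGRP fed, 40.7 to 84.1 TPM in AGRP FD, 63.0 to 104 TPM in POMC fed and 10.9 to 48.6 TPM in POMC FD libraries. It thus moved with the change of Asb4 in POMC neurons and with the 9 members whose change differed between the cell types. Of the other 3 markers in that list, Rax stayed at or below 1.44 CPM, Foxj1 at or below 4.34 CPM, and Ccdc153 was at 0 in 16 libraries. The summed level of the 6 fibroblast and choroid plexus markers ran from 2.68 to 25.7 TPM in AGRP and from 17.6 to 117 TPM in POMC libraries. The part of these cells in the members' differences was not tested, and in bulk samples of this kind fewer cells that express a gene and less RNA per cell cannot be told apart.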

How the data were processed

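Total RNA of hand-sorted neurons was amplified and sequenced by the authors. According to the methods, they trimmed adaptors with cutadapt 1.7.1, removed abundant sequences with Bowtie2 2.1.0, mapped reads to mm10 with STAR 2.4.0i and counted uniquely mapped reads per gene with HTSeq 0.6.1p1 without regard to strand, against GENCODE VM4 Basic. The authors deposited these counts unnormalized, and TPM values which the authors made from the counts and the summed exon length of each gene. In such counts, reads that lie only on exon bases shared by annotated genes are set aside as ambiguous. A transcript of the other strand outside the annotation cannot be told apart from the gene. Overlaps were taken from GENCODE M21, not the release used for counting. There an opposite-strand gene shares 8.83% of the exon bases of Gnas (Nespas), 23.1% of Mest (Copg2), 8.74% of Ube3a (Snhg14) and 30.7% of Cdkn1c (Gm44732).

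Counts of 35266 genes in 21 libraries were fitted here with edgeR 4.0.16 (R 4.3.3), TMM scaling and the quasi-likelihood F test, two-sided, in 1 model of 4 groups, after dropping genes not over 1 CPM in at least 3 libraries. The 16513 genes left were adjusted together by Benjamini-Hochberg, and called at an adjusted p under 0.05. The 92 spike-in rows and 5 summary rows stayed out of library sizes; reads on no gene made up 24.2% to 52.1% and ambiguous reads 0.951% to 1.57%. Log2 fold changes carry the SE of the fit, and normalized CPM are counts scaled by TMM. Within spike-in sets, log2(CPM + 0.5) was averaged. Intervals of the fit cover the spread between mice, and the floor of 3 counts covers counting error only, without molecular identifiers. The procedure was tested on simulated data. No pair of libraries was identical.

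The members and gene lists were chosen with earlier results of these data known. Full values were given for members called in a comparison, for Asb4 and Gnas throughout and for the member with the highest TPM in each locus, and of other lists at most 3 called genes with the largest change were named. Kinds of alternative were limma-voom (limma 3.58.1), DESeq2 1.42.0, RLE scaling, no count filter, the groups compared alone, the replicate number or the spike-in set as a block, and each library left out. Leaving out POMC fed replicates 1 and 2 was added after seeing the data. Replicate numbers do not mark shared animals, and same-numbered samples did not deviate together (correlations from −0.12 to 0.05). Promoter windows and microRNAs came from RefSeq (GRCm38.p6, the build mm10), matched by symbol.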

Additional observations from a re-analysis of the deposited data

Results flagged for a closer look

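In 9 of 136 sets of libraries (1 member in 1 group) a library lay far from the others of its group, 6.62%, where chance gives about 1 in 20. In POMC fed, Calcr was at 10.8 normalized CPM in replicate 4, next to 1.14 in the nearest other library, Mirg at 99.8 in replicate 2, Ndn at 1355 in replicate 1 and Impact at 1571 in replicate 1. In POMC FD, replicate 1 was highest for Mest (182), Zim1 (211) and Airn (17.02). Blcap was at 164 in AGRP FD replicate 2, and Peg3 at 4635, the lowest value, in AGRP fed replicate 3.

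The change with deprivation differed between AGRP and POMC neurons in 9 members by the interaction term. The change in AGRP less that in POMC neurons was 2.42 (log2) for Asb4, 0.61 for Ppp1r9a, 1.49 for Peg10, 1.02 for Gnas, 1.37 for Dlk1, 1.53 for Rtl1, 2.52 for Mirg, 0.90 for Ndn and 0.96 for Inpp5f.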

How the results depend on the processing

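Counts of members called moved by more than 1.5 times in the 2 deprivation comparisons only. DESeq2 called 2 members in POMC FD versus fed, where edgeR called 1. Without the count filter, 19 of 39 members were called between the cell types when FD, 11 higher and 8 lower in AGRP neurons. This goes beyond Meg3 and Cdkn1c and so includes members not otherwise tested, which lay at or near 0 in most libraries. With the spike-in set as a block, 18 were called there. With 1 library left out, the counts ran from 7 to 12 in AGRP FD versus fed (7 without AGRP fed replicate 3), from 1 to 2 in POMC FD versus fed (2 without POMC fed replicate 4), from 8 to 11 between the cell types when fed, from 15 to 17 when FD and from 8 to 11 for the difference in change. The replicate number as a block gave 11, 1, 9, 15 and 8 members called in the 5 comparisons; the numbers pair no animals, and 2 of 20 pairs correlated best with their own number. Without POMC fed replicates 1 and 2, the counts were 1, 10 and 9 in the 3 comparisons that use them. Of the members called, 7 of 12, 1 of 1, 6 of 10, 14 of 15 and 7 of 9 held under every alternative and with any 1 library left out. limma-voom moved the median over all genes to −0.13 in AGRP FD versus fed and −0.10 in the difference. Signs turned only among changes that missed the threshold. In POMC neurons these were, with the spike-in block, Dlk1 (0.037), Magel2 (0.15), Meg3 (−0.011), Mest (0.019), Nap1l5 (0.089) and Rian (−0.036), Nap1l5 also with DESeq2 and RLE (0.010 each) and limma-voom (0.034), Meg3 with limma-voom (−0.018), and, without POMC fed replicates 1 and 2, Dlk1 (0.15), H13 (0.25), Magel2 (0.25), Meg3 (−0.13) and Zrsr1 (−0.11). In AGRP neurons they were Peg3 with DESeq2 and RLE (−0.010 each) and Zrsr1 with limma-voom (−0.038). With 1 library left out, signs turned within these ranges in POMC neurons: Dlk1 −0.20 to 0.061, H13 −0.29 to 0.12, Igf2r −0.34 to 0.081, Impact −0.13 to 0.010, Magel2 −0.20 to 0.060, Meg3 −0.23 to 0.25 and Nap1l5 −0.080 to 0.059, and in AGRP neurons Asb4 −0.18 to 0.0051, Peg3 −0.047 to 0.030 and Zrsr1 −0.12 to 0.22. The cause of these changes was not tested. The 5 untested members were at 0 in 15 to 19 of the 21 libraries, where absence and a level under the floor of 3 counts (0.0797 to 0.305 CPM) cannot be told apart.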
